A study of Homo sapiens with 4 samples.

Results

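The genes described here encode the NF-kB transcription factor subunits, the proteins that restrain or activate them, and well-known NF-kB target genes other than chemokines. A list of 40 symbols was matched by Ensembl identifier to the deposited table of 26518 genes, and 39 had a row; SOD2 was not analysed here. Of these 39 genes, 33 averaged 1 TPM or more across the 4 libraries and were tested. TPM is a transcript level corrected for gene length and scaled to the library total. The list holds 5 subunits, 5 IkB family members, 5 kinase components, 6 adaptors and ubiquitin ligases, 3 TNF-induced proteins, 9 cytokines and 6 other targets with a row.

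RNA-seq was done on MDA-MB-468, a long-established line of human triple-negative breast cancer cells. All cells were grown in DMEM with serum, infected with a lentivirus and selected with puromycin. The 2 shControl libraries came from cells with the pGIPZ control vector, and the 2 shSASH1 libraries from cells with a hairpin targeting SASH1, which encodes an SH3 and SAM domain scaffold. The labels speak of stable clones without giving the number of clones, hairpins or separate cultures, so each p-value covers no more than the differences among these libraries, which may be technical.

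NF-kB proteins are dimers of RELA, RELB, REL, p50 (from NFKB1) and p52 (from NFKB2). In resting cells IkB proteins hold them in the cytoplasm. In the canonical pathway, receptors such as those for TNF and IL-1 signal through TRAF adaptors and ubiquitin ligases to the IKK complex (IKBKB, CHUK and IKBKG), which marks IkB for destruction. In the noncanonical pathway the kinase MAP3K14 (NIK), normally degraded through TRAF2, TRAF3, BIRC2 and BIRC3, leads through CHUK to processing of the NFKB2 precursor, and p52 then pairs with RELB. Many targets, among them NFKBIA and TNFAIP3, encode inhibitors that close feedback loops. Processing, binding and movement of these proteins are not measured by RNA-seq.

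The DNA element that NF-kB dimers bind is the kappaB site, and the promoter stretches that hold one are shown for the 5 genes with the largest change among those called higher with a match. NFKBIA and NFKBIB, neither called, are shown beside them and were chosen after their values were seen. Sequences are from RefSeq on GRCh38.p14, 5′ to 3′ on the gene's strand, and capitals mark the matches to the kappaB consensus. For BIRC3 the stretch was chr11:102317260-102317383 on the plus strand, for TNFAIP3 chr6:137867192-137867213 (plus), for IRF1 chr5:132490799-132490848 (minus), for NFKB2 chr10:102395504-102395563 (plus), for LCN2 chr9:128149265-128149312 (plus), for NFKBIA chr14:35404796-35404855 (minus) and for NFKBIB chr19:38899916-38899951 (plus).
BIRC3: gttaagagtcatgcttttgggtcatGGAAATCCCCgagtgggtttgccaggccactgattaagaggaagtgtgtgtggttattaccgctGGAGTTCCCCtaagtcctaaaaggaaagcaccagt
TNFAIP3: GGAAAGTCCCgtGGAAATCCCC
IRF1: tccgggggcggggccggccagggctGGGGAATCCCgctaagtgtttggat
NFKB2: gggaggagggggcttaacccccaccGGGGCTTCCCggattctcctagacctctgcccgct
LCN2: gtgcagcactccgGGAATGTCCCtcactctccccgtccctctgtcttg
NFKBIA: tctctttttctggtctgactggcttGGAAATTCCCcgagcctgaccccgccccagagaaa
NFKBIB: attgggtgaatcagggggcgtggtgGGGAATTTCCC

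In BIRC3 and TNFAIP3 the stretch shown holds a pair of separate matches. The BIRC3 matches began 199 and 135 bases before the RefSeq start, and the TNFAIP3 matches 67 and 55 bases before it, inside an annotated exon. The IRF1, NFKB2, LCN2, NFKBIA and NFKBIB matches began 50, 176, 175, 81 and 28 bases before a RefSeq start. NFKB2 held more matches than the one printed with its flanks: GGGACTTTCC at chr10:102395684-102395693, 21 bases before the same start, and others that began 107 and 78 bases before another of its starts. NFKBIB held a further match after its start. Of the 39 genes, 34 had a promoter window from 250 bases before to 50 bases after a start, and 17 of these 34 (50%) held the kappaB consensus on either strand, against 3619 of all 27305 genes with a window (13.3%) and 1852 of 10911 tested genes (17.0%). The list was made of NF-kB genes and well-known targets, so its share was set by that choice and is no result of these libraries. Among listed genes with a window, 6 of the 12 called higher held the consensus (50%), and so did 9 of the 16 that were tested and not called (56.2%). The ICAM1 and TNFAIP2 windows held no match, which says only that these letters are not in this window.

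SASH1 itself stood at 15.0 and 13.0 TPM in shControl and was 3.66-fold lower in shSASH1, at 3.65 and 4.01 TPM. The libraries corresponded to an estimated 19528038 to 24362237 reads. Limma called 4630 of 14458 tested genes changed (32.0%), 2712 higher in shSASH1 (18.8%) and 1918 lower (13.3%) at an adjusted p of 0.05, with a median log2 change of 0.06. The shSASH1 pair differed more among themselves than the shControl pair for many of the genes below. Of the 8 epithelial markers, EPCAM, KRT8, KRT18, KRT19 and KRT5 were at 543 TPM or more in every library, and EGFR was called higher (1.96-fold, limma adjusted p = 0.0034). KRT17 (466, 465, 560.5 and 227 TPM, shControl first) and CDH1 (76.9, 80.4, 66.5 and 48.2 TPM) were lowest in shSASH1 replicate 2. So were KRT5 (1063, 1049.8, 1225 and 758 TPM), KRT8, KRT18 and KRT19, while EPCAM was lowest in shSASH1 replicate 1.

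Among the 33 tested NF-kB genes, 15 rose in shSASH1 cells and 0 fell by limma, against 18.8% higher and 13.3% lower in the whole table. At an unadjusted p under 0.05 there were 19 higher and 1 lower, against 26.7% and 19.6% of all tested genes, and voom on rebuilt reads gave 15 higher and 1 lower, against 17.6% and 19.5%. LTB, counted among the 19, was under 1 TPM in shControl and was tested only because of its shSASH1 level. The other 32 genes had 18 higher and 1 lower at an unadjusted p under 0.05 by limma, and a median log2 change of 0.45. The 10 subunits and kinases had 6 called higher and a median of 0.38, and the 11 TNF-induced proteins, cytokines and other targets with at least 1 TPM in both groups had 7 called higher and a median of 1.15; another 6 targets were too low to test. The 2 sets were not tested against each other. The changes of the targets ran from 0.06 to 2.95, and those of all 21 signalling genes from -0.36 to 3.06, so the ranges overlapped. The 3.06 was BIRC3 alone, and the next highest signalling change was 1.03, in NFKB2. Both shSASH1 libraries were above both shControl libraries for 23 of these 32 genes and below for 3, compared with 41.3% and 32.3% of all tested genes.

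**Figure D1:**
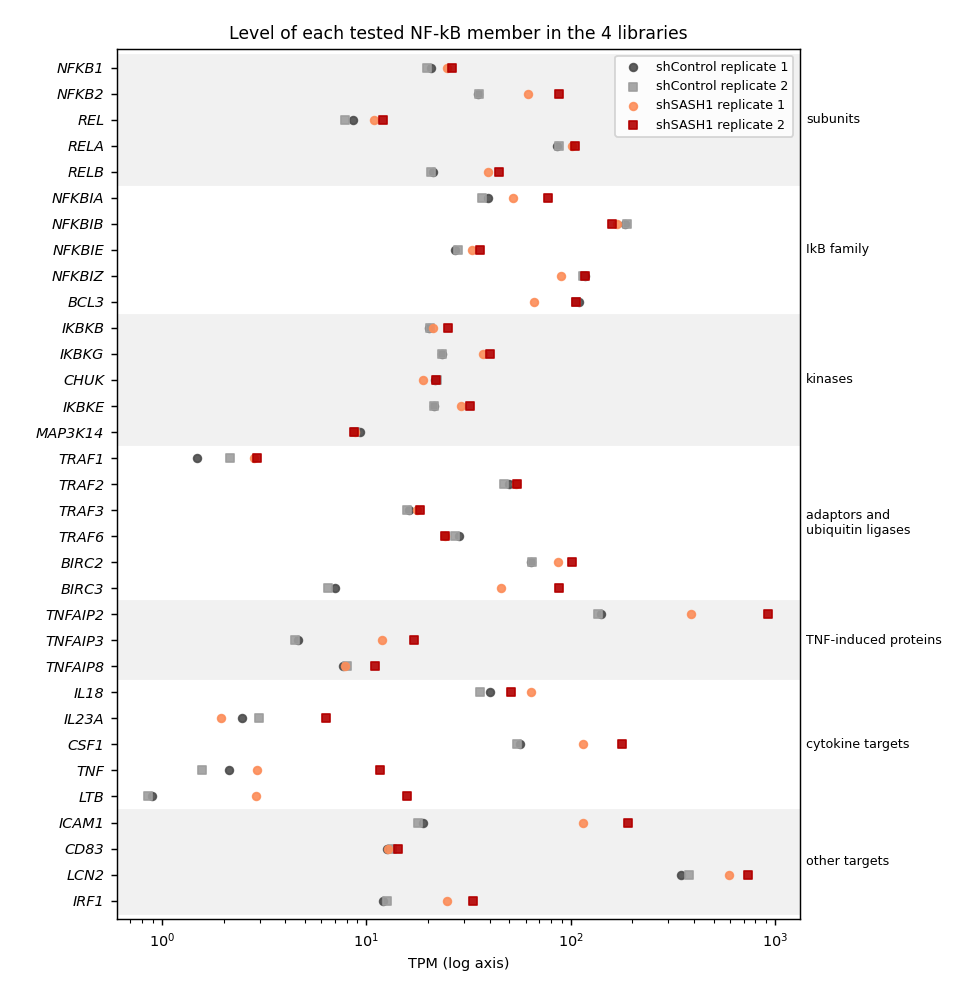
Each tested NF-kB gene (rows, grouped by role) is placed by its level in TPM on a log axis, with circles for replicate 1 and squares for replicate 2, grey for shControl and orange or red for shSASH1. The shControl pair nearly coincides for most genes, while the shSASH1 pair is spread apart at BIRC3 (45.4 and 87.9 TPM), TNFAIP2 (388 and 926 TPM), TNF (2.91 and 11.6 TPM) and LTB (2.88 and 15.8 TPM).

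The subunit transcripts with the largest change were NFKB2 and RELB, the partners of the noncanonical pathway. NFKB2 (ENSG00000077150, chr10:102394110-102402529 in GENCODE 29 on hg38) was at 35.3 and 35.5 TPM in shControl and at 61.5 and 87.3 TPM in shSASH1. Its mean rose from 35.4 ± 0.0946 to 74.4 ± 18.2 TPM (SD, n = 2), 2.10-fold, with a log2 change of 1.03 ± 0.18 (SE) and a limma adjusted p of 0.0172. Both shSASH1 libraries lay above both controls, with replicate 2 the higher. RELB (ENSG00000104856, chr19:45001430-45038198) was at 21.2 and 20.8 TPM in shControl and at 39.1 and 44.5 TPM in shSASH1. It rose 1.99-fold from 21.0 ± 0.306 to 41.8 ± 3.82 TPM (SD, n = 2), with a log2 change of 0.96 ± 0.09 and a limma adjusted p of 0.00519. For RELB the shSASH1 libraries lay close together and far from the controls. In bulk RNA, a larger share of cells expressing a gene and more RNA per cell cannot be told apart.

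The canonical subunits changed less. RELA, the main activating subunit, was the most abundant of the 5, at 85.2 and 87.7 TPM in shControl and 101 and 105 TPM in shSASH1, a 1.20-fold rise (log2 change 0.26 ± 0.06, limma adjusted p = 0.0337). NFKB1 was at 20.8 and 19.8 TPM in shControl and 24.9 and 26.2 TPM in shSASH1, a 1.26-fold rise (0.32 ± 0.08, limma adjusted p = 0.0461). Both were near the threshold: RELA was called in 5 and NFKB1 in 2 of 11 alternative settings that kept all libraries, with adjusted p from 0.0248 to 0.109 and from 0.0376 to 0.818. REL, a subunit best known from lymphoid cells, was at 8.58 and 7.85 TPM in shControl and at 10.9 and 12.1 TPM in shSASH1, which missed the threshold (0.44 ± 0.12, limma adjusted p = 0.0509). For all 5 subunits both shSASH1 libraries lay above both controls, as they did for 41.3% of all tested genes.

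The makeup of the subunit pool moved with these values. The 5 subunits summed to 171 and 172 TPM in shControl and to 238 and 275 TPM in shSASH1. NFKB2 made up 20.6% and 20.7% of that sum in shControl and 25.9% and 31.7% in shSASH1, and RELB 12.4% and 12.1% against 16.4% and 16.2%. The share of RELA was 49.8% and 51.1% in shControl and 42.7% and 38.2% in shSASH1, although its own level was higher there. The level of NFKB2 relative to NFKB1 was 1.70 and 1.79 in shControl and 2.47 and 3.33 in shSASH1, and that of RELB relative to RELA was 0.249 and 0.237 against 0.385 and 0.423. These ratios are descriptions with no test; with 2 libraries a group, the smallest two-sided p of an exact permutation test is 0.333.

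None of the 5 IkB family genes passed limma's threshold, in either direction. At an unadjusted p under 0.05 there were 2 higher and 1 lower, against 26.7% and 19.6% of all tested genes. Voom called 1 higher and 1 lower, against 17.6% and 19.5%. NFKBIA encodes IkB-alpha, the inhibitor that NF-kB itself induces. It was at 39.5 and 36.8 TPM in shControl and at 52.1 and 77.3 TPM in shSASH1, with a log2 change of 0.72 ± 0.20 and a limma adjusted p of 0.0532. Its groups did not overlap, and it was called in 6 of the 11 alternatives that kept all libraries, with adjusted p from 0.0257 to 0.0880. NFKBIE (IkB-epsilon) was at 27.0 and 28.2 TPM against 32.8 and 35.8 TPM (0.30 ± 0.08, limma adjusted p = 0.0519). NFKBIB (IkB-beta), the most abundant of the 5, was at 184 and 189 TPM in shControl and 168 and 159 TPM in shSASH1 (-0.19 ± 0.06, limma adjusted p = 0.0677).

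NFKBIZ and BCL3 encode nuclear IkB proteins that act with p50 or p52 at target genes. NFKBIZ was at 117 and 115 TPM in shControl and at 89.5 and 117 TPM in shSASH1. BCL3 was at 109.9 and 106 TPM in shControl and at 66.1 and 106 TPM in shSASH1. In both, shSASH1 replicate 1 was low and replicate 2 was at the control level, so the groups overlapped and neither passed (limma adjusted p = 0.351 and 0.289). RELB lies 241 kb from BCL3 on chromosome 19, and RELB over BCL3 in TPM was 0.193 and 0.197 in shControl and 0.591 and 0.418 in shSASH1.

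Of the kinase components, IKBKG and IKBKE were called higher and IKBKB, CHUK and MAP3K14 were not called. IKBKG encodes NEMO, the regulatory subunit of the IKK complex. It was at 23.5 and 23.3 TPM in shControl and at 37.3 and 40.4 TPM in shSASH1, a 1.66-fold rise (log2 change 0.71 ± 0.08, limma adjusted p = 0.00657). A near-identical pseudogene exists, so its reads are uncertain.

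IKBKE, an IKK-related kinase described as an oncogene in breast cancer, was at 21.5 and 21.4 TPM in shControl and at 29.1 and 32.0 TPM in shSASH1 (log2 change 0.49 ± 0.08, limma adjusted p = 0.0176). The 9 other tested genes within 0.5 Mb had a median log2 change of 0.63, with 5 called higher and 1 lower, and the 135 tested genes of its 20 Mb window a median of 0.41. With the window's median deviation removed, the change of IKBKE was 0.08 (adjusted p = 0.528, against 0.0134 to 0.528 over the 11 alternatives). The catalytic subunits did not pass: IKBKB was at 20.3 and 20.4 TPM against 21.1 and 25 TPM (adjusted p = 0.291), and CHUK at 21.7 and 22.1 TPM against 19.0 and 21.8 TPM (adjusted p = 0.466), both by limma. MAP3K14, the noncanonical kinase NIK, was at 9.32 and 8.81 TPM in shControl and at 8.75 and 8.68 TPM in shSASH1 (-0.05 ± 0.11, limma adjusted p = 0.742). The largest subunit changes, in NFKB2 and RELB, stood beside MAP3K14 and CHUK transcripts that were not called. The proteins were not measured, and a link between these values was not tested.

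BIRC3 (cIAP2), a ubiquitin ligase and apoptosis inhibitor, had the largest change of the 33 genes (ENSG00000023445, chr11:102317450-102339403). It was at 6.99 and 6.47 TPM in shControl and at 45.4 and 87.9 TPM in shSASH1. Its mean rose 9.91-fold, from 6.73 ± 0.364 to 66.7 ± 30.1 TPM (SD, n = 2), with a log2 change of 3.06 ± 0.32 and a limma adjusted p of 0.00605. The 2 shSASH1 libraries were 6.74-fold and 13.1-fold above the control mean. BIRC2 (cIAP1), its paralog, starts 7.81 kb from the end of BIRC3 on chromosome 11 and was at 64.0 and 64.3 TPM in shControl and at 86.5 and 101 TPM in shSASH1, a 1.46-fold rise (0.54 ± 0.09, limma adjusted p = 0.0173). BIRC2 missed the threshold when centred on the median level of its 20 Mb window (0.32, adjusted p = 0.0515, against 0.00925 to 0.0515 over 11 alternatives). BIRC3 went from 0.109 and 0.101 of the BIRC2 level to 0.525 and 0.871 of it.

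The TRAF adaptors did not pass. TRAF1, itself an NF-kB target, was at 1.49 and 2.15 TPM in shControl and at 2.83 and 2.90 TPM in shSASH1 (limma adjusted p = 0.148). TRAF2 was at 49.8 and 47.3 TPM against 53.7 and 54.4 TPM (0.136), and TRAF3 at 16.1 and 15.8 TPM against 17.6 and 18.3 TPM (0.203), both by limma. TRAF6, the adaptor of IL-1 and Toll-like receptors, was at 28.4 and 27.2 TPM against 24.3 and 24.2 TPM (log2 change -0.19 ± 0.07, limma adjusted p = 0.119). Centring on the 20 Mb window's median level gave TRAF6 a change of 0.16 instead, so its direction depended on that setting.

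**Figure D2:**
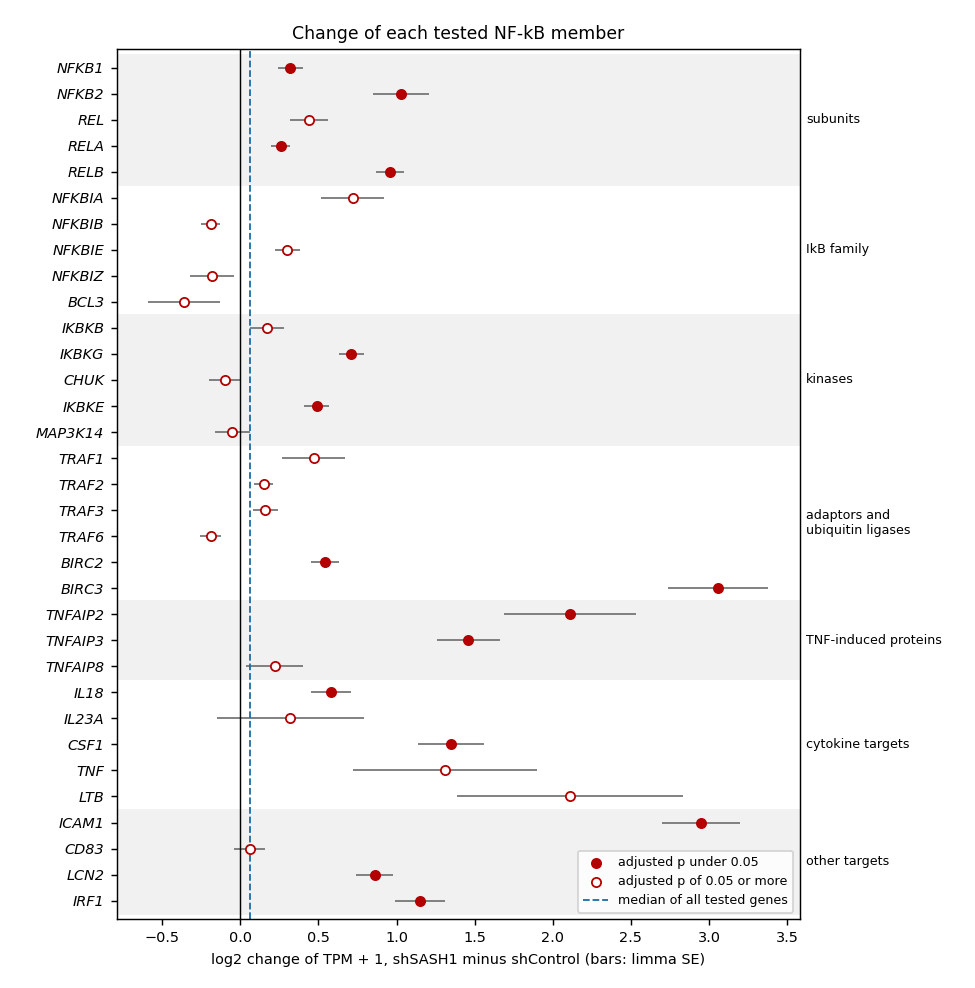
Points give the log2 change (shSASH1 minus shControl, on log2 of TPM + 1) of each tested NF-kB gene with limma's SE as bars; filled points passed the adjusted p of 0.05, and the dashed line is the median of all tested genes (0.06). All 15 filled points lie to the right of zero, from RELA at 0.26 to BIRC3 at 3.06; centred on the median level of its window, NFKB1 came to -0.03.

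Of the TNF-induced proteins, TNFAIP3 and TNFAIP2 rose. TNFAIP3 (A20), an enzyme that edits ubiquitin chains and shuts the pathway down (chr6:137867188-137883312), was at 4.65 and 4.46 TPM in shControl and at 11.9 and 17.1 TPM in shSASH1. It rose 3.17-fold from 4.56 ± 0.131 to 14.5 ± 3.68 TPM (SD, n = 2; log2 change 1.46 ± 0.20, limma adjusted p = 0.00996). TNFAIP2, a cytokine-inducible protein linked to membrane protrusions (chr14:103123442-103137439), was already at 141 and 135 TPM in shControl and reached 388 and 926 TPM in shSASH1, 2.81-fold and 6.69-fold above the control mean (2.11 ± 0.42, limma adjusted p = 0.0244). TRAF3, whose gene lies 212 kb away on chromosome 14, was not called, and TNFAIP2 over TRAF3 in TPM went from 8.78 and 8.58 to 22.1 and 50.6. TNFAIP8, an apoptosis regulator, was at 7.70 and 8 TPM against 7.81 and 11 TPM; its groups overlapped and it did not pass (limma adjusted p = 0.400).

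Among the cytokines, CSF1 and IL18 rose. CSF1, the growth factor of macrophages (chr1:109910242-109930992), was at 56.5 and 54.5 TPM in shControl and at 115 and 177 TPM in shSASH1. It rose 2.63-fold from 55.5 ± 1.42 to 146 ± 43.5 TPM (SD, n = 2; log2 change 1.35 ± 0.21, limma adjusted p = 0.0140). The 21 other tested genes within 0.5 Mb had a median log2 change of -0.13. IL18, an inflammasome-processed cytokine, was at 40 and 36 TPM in shControl and at 63.7 and 51.1 TPM in shSASH1, a 1.51-fold rise (0.58 ± 0.13, limma adjusted p = 0.0332). It was the only gene of the 15 called in which shSASH1 replicate 2 lay below replicate 1, and it was called in 5 of the 11 alternatives that kept all libraries, with adjusted p from 0.0155 to 0.15.

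TNF and LTB (lymphotoxin-beta) are neighbouring ligand genes in the major histocompatibility complex, 2.19 kb apart. TNF was at 2.13 and 1.56 TPM in shControl and at 2.91 and 11.6 TPM in shSASH1, from an estimated 21, 18, 32 and 102 reads. LTB was at 0.889 and 0.854 TPM in shControl and at 2.88 and 15.8 TPM in shSASH1, from an estimated 8, 9, 29 and 127 reads. Both were far higher in shSASH1 replicate 2 than in replicate 1, their groups did not overlap, and neither passed (log2 change 1.31 ± 0.59 and 2.11 ± 0.72, limma adjusted p = 0.154 and 0.0871). LTB over the control mean was 3.3-fold in replicate 1 and 18.1-fold in replicate 2. IL23A was at 2.46 and 2.97 TPM against 1.94 and 6.32 TPM; the groups overlapped (limma adjusted p = 0.622).

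The inflammatory cytokines IL1A, IL1B, IL32 and CSF2 had a mean under 1 TPM and were not tested. IL1A had an estimated 8 and 8 reads in shControl and 19 and 3 in shSASH1, IL1B 5 and 5 against 9 and 7, IL32 1 and 2 against 8 and 7, and CSF2 2 and 1 against 4 and 2. At these read numbers no fold is given. BCL2A1, an apoptosis inhibitor of the BCL2 family, had 3 and 0 reads against 0 and 0, and PTX3, a soluble pattern recognition protein, 1 and 0 against 1 and 4.

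The remaining targets held the second largest change of all. ICAM1, the adhesion molecule that leukocyte integrins bind (ENSG00000090339, chr19:10270835-10286615), was at 18.9 and 17.8 TPM in shControl and at 115 and 191 TPM in shSASH1. It rose 8.34-fold from 18.4 ± 0.752 to 153 ± 53.9 TPM (SD, n = 2; log2 change 2.95 ± 0.25, limma adjusted p = 0.00420). Its surroundings on chromosome 19 were also high: of the 30 tested genes within 0.5 Mb, 25 were called higher and 1 lower, with a median of 0.54, while the 466 genes of its 20 Mb window had a median of 0.04. The log2 change of ICAM1 was 2.95 beside that local median of 0.54, and the part of the local shift in it was not tested. Removing the deviation of the 20 Mb window, as done below, does not take out a shift confined to 0.5 Mb.

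LCN2 (lipocalin 2), a secreted iron-siderophore carrier (chr9:128149071-128153455), was at 346 and 378 TPM in shControl and at 591 and 734 TPM in shSASH1, a 1.83-fold rise (log2 change 0.86 ± 0.12, limma adjusted p = 0.0114). IRF1, a transcription factor shared with the interferon response (chr5:132481609-132490798), was at 12.1 and 12.6 TPM in shControl and at 24.7 and 33.1 TPM in shSASH1, a 2.34-fold rise (1.15 ± 0.16, limma adjusted p = 0.0105). It overlaps IRF1-AS1 on the opposite strand, which was at 2.17 and 2.11 TPM against 3.93 and 6.60 TPM, and the use of strand in counting is not given in the sources used here. CD83, an activation marker of dendritic cells, stayed between 12.6 and 14.2 TPM in all 4 libraries (0.06 ± 0.10, limma adjusted p = 0.706), with a change of -0.01 after quantile normalization and -0.25 with its window's median deviation removed.

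The 2 shSASH1 libraries did not show the NF-kB genes at one level. Replicate 2 lay above replicate 1 for 28 of the 32 genes with at least 1 TPM in both groups (87.5%), by a median of 0.21 on the log2 scale, compared with 8301 of 14458 genes (57.4%) and a median of 0.05 in the whole table. By role, the median difference between the replicates was 0.14 for the subunits, 0.38 for the IkB family, 0.13 for the kinases, 0.04 for the adaptors and ligases, 0.49 for the TNF-induced proteins, 1.32 for the 5 tested cytokines, LTB included, and 0.36 for the other targets. The leukocyte markers summed to 40.8 and 47.4 TPM in shControl and to 44.7 and 103 TPM in shSASH1. CD14, a lipopolysaccharide co-receptor, made up most of that sum, at 33.2 and 39.9 TPM against 33.3 and 96.5 TPM, followed by CSF1R at 7.08 and 6.70 against 10.5 and 4.60 TPM and ITGAM at 0.270 and 0.666 against 0.857 and 2.11 TPM; PTPRC, CD68, CD3E and MS4A1 were at 0.158 TPM or less and LYZ at 0. The 7 fibroblast markers summed to 7.23 and 6.49 TPM against 9.28 and 11.1 TPM, nearly all of it COL1A1 (7 and 6.32 against 8.98 and 10.9 TPM, limma adjusted p = 0.0557), with COL1A2 and LUM at 0. The 5 endothelial markers summed to 4.07 and 3.66 TPM against 4.13 and 3.16 TPM. The part of these levels in the NF-kB values was not tested.

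**Figure D3:**
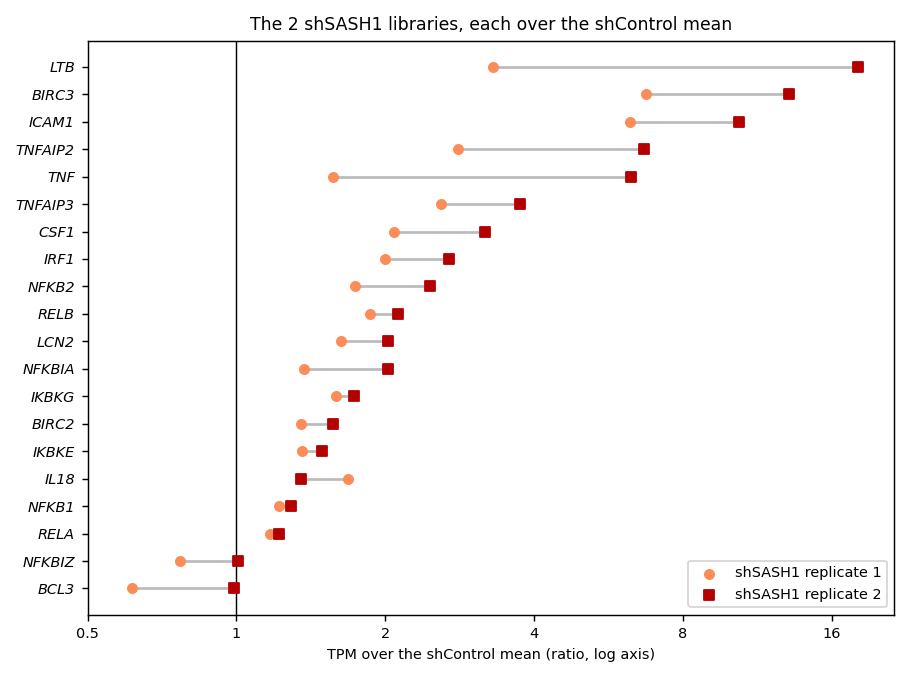
For the 15 genes called higher and 5 genes that were not called (TNF, LTB, NFKBIA, BCL3 and NFKBIZ, chosen after their values were seen), each shSASH1 library is shown as its TPM over the shControl mean on a log axis, with a line joining replicate 1 (circle) and replicate 2 (square). Replicate 2 is the higher in all but IL18, and LTB spans 3.3-fold to 18.1-fold while RELA and NFKB1 hardly spread.

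Leaving out 1 library moved the counts. LTB, tested only because of its shSASH1 level, is among the 33 genes counted. Without shSASH1 replicate 1, 23 of the 33 genes were called higher (31.4% of all tested genes), and without shSASH1 replicate 2, 16 were (22.7% of all), the spread then coming from the shControl pair. Without either shControl library limma called 0 genes in the whole table, where the spread came from the shSASH1 pair alone. With all libraries kept, 10 genes were called higher under every one of the 11 alternatives, as were 1165 of all 14458 tested genes (8.06%): NFKB2, RELB, IKBKG, BIRC3, TNFAIP2, TNFAIP3, CSF1, ICAM1, LCN2 and IRF1. These were 3 of the 10 subunits and kinases, BIRC3, and 6 of the 12 tested targets.

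The chromosome windows were then taken out. With the median deviation of each 20 Mb window removed, 12 of the 15 genes were still called higher (13.2% of the whole table, 1890 genes higher and 1722 lower), and NFKB1 (0.07, adjusted p = 0.533), IKBKE and IL18 (0.50, adjusted p = 0.0725) were not. NFKBIA then passed at 0.64 (adjusted p = 0.0495). Of the genes with a log2 change over 1, BIRC3 came to 2.98, ICAM1 to 2.90, TNFAIP2 to 2.09, TNFAIP3 to 1.64, CSF1 to 1.52, IRF1 to 1.13 and NFKB2 to 0.96, and the uncalled LTB and TNF to 1.89 and 1.09.

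**Figure D4:**
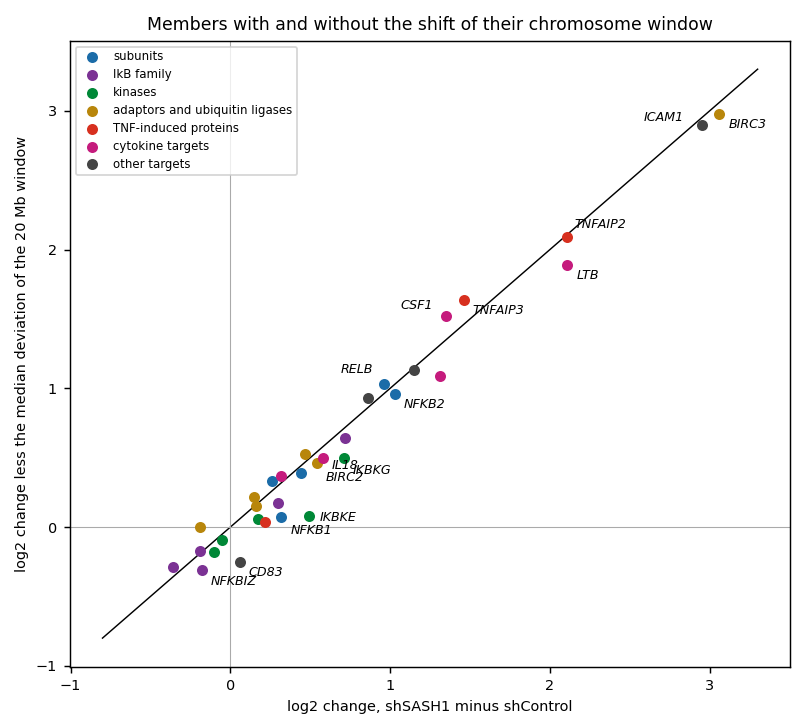
The log2 change of each tested NF-kB gene (horizontal axis) is plotted against the change left after the median deviation of its 20 Mb chromosome window was removed (vertical axis), coloured by role, with the line of equal values. Points lie near the line from -0.36 to 3.06, with IKBKE (0.49 to 0.08), NFKB1 (0.32 to 0.07) and CD83 (0.06 to -0.25) farther below it.

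Another 67 genes of the pathway had a row, and 52 were tested. Of these, 19 were called higher and 3 lower, against 18.8% and 13.3% of all tested genes; the 50 with at least 1 TPM in both groups had a median of 0.26, against 0.06 over all genes. Among receptors and receptor adaptors, 5 of 14 rose and 0 fell by limma, against the same shares. At an unadjusted p under 0.05 there were 8 and 0, against 26.7% and 19.6% of all tested genes. By voom there were 5 and 0, against 17.6% and 19.5%. IRAK2, counted among the 8, was at 0.298 and 0.425 TPM in shControl and at 1.42 and 4.84 TPM in shSASH1. It was tested only because of its shSASH1 level. TRAF5, an adaptor of TNF receptor family members, was at 3.89 and 4.28 TPM in shControl and 11.5 and 9.74 TPM in shSASH1 (log2 change 1.19, limma adjusted p = 0.00764). IL1RAP, the shared chain of IL-1 family receptors, went from 4.68 and 4.40 to 10.4 and 12.3 TPM (1.15, limma adjusted p = 0.00765). The lymphotoxin-beta receptor LTBR, which feeds the noncanonical pathway, rose by 0.49 (adjusted p = 0.00964), and the kinase IRAK1 by 0.47 (adjusted p = 0.0345), both by limma. With the window's deviation removed IRAK1 was not called (0.26, adjusted p = 0.153).

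Of 12 tested genes of the TAK1, LUBAC, CBM and TBK1 complexes, 2 rose and 2 fell, a share near that of the whole table (18.8% and 13.3%). The CBM partners BCL10 (19.4 and 20.5 against 34.4 and 36.9 TPM, 0.81, limma adjusted p = 0.00572) and MALT1 (0.52, limma adjusted p = 0.0314) were the 2 that rose. The 8 other tested genes within 0.5 Mb of BCL10 had a median log2 change of 0.89, with 6 called higher and 0 lower. With the deviation of its 20 Mb window removed (median 0.40), BCL10 was at 0.40 (limma adjusted p = 0.0372). The part of the local shift in BCL10 was not tested. SHARPIN, a LUBAC subunit, fell from 67.8 and 68.8 to 46.4 and 43.6 TPM (-0.59, limma adjusted p = 0.00670), and TAB3, a TAK1 adaptor, fell by 0.35 (limma adjusted p = 0.0433). The 20 Mb windows of SHARPIN and TAB3 had medians of -0.42 and -0.45, and with the window's deviation removed these genes were at -0.16 and 0.18 and not called, nor was MALT1 (0.36, adjusted p = 0.0576). TAB2 was not analysed here.

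Of 11 deubiquitinases and nuclear inhibitors, 5 rose and 1 fell, against 18.8% and 13.3% of all tested genes. TNIP1, a ubiquitin-binding partner of A20, went from 64.6 and 66.8 to 105 and 108 TPM (0.69, limma adjusted p = 0.00415). ZC3H12A, an RNase that degrades inflammatory mRNAs, went from 43.5 and 43.3 to 61.6 and 89.8 TPM (0.76, limma adjusted p = 0.0404), and NKRF, a nuclear repressor, rose by 0.51 (limma adjusted p = 0.0206). COMMD1, which promotes degradation of RELA, fell from 19.7 and 21.1 to 10.6 and 9.74 TPM (-0.94, limma adjusted p = 0.00608). With the window's deviation removed, NKRF was at -0.14 and ZC3H12A at 0.46 and neither was called (adjusted p = 0.354 and 0.141); the 20 Mb window of NKRF had a median of 0.70.

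Of 15 other tested non-chemokine targets, 7 rose and 0 fell by limma, against 18.8% and 13.3% of all tested genes. At an unadjusted p under 0.05 there were 9 and 0, against 26.7% and 19.6%. By voom there were 7 and 0, against 17.6% and 19.5%. Complement C3 went from 5.34 and 6.54 to 47.0 and 127 TPM, 14.6-fold (3.50 ± 0.48, limma adjusted p = 0.0105). The acute-phase genes SAA1 (98.9 and 102 against 210.1 and 481 TPM, limma adjusted p = 0.0390) and SAA2 (13.9 and 9.16 against 24.4 and 54.3 TPM, limma adjusted p = 0.0484) also rose; they are near copies that can share reads, and SAA2 missed the threshold with the window's deviation removed (adjusted p = 0.0535). RIPK2, the kinase of NOD receptors, rose from 33.8 and 34.3 to 66.4 and 69.6 TPM (0.98, limma adjusted p = 0.00299). Unlike C3 and the SAA genes, RIPK2 was nearly equal in both shSASH1 libraries. Over the 50 genes, replicate 2 lay above replicate 1 in 27 (54.0%), by a median of 0.06.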

How the data were processed

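RNA was extracted with TRIzol and libraries were made with an NEBNext Ultra kit, per the labels' protocols. The authors deposited TPM, per Ensembl gene, for 4 libraries, grouped here by title. The submitters' processing notes name STAR, DESeq2 and hg38 with no version; counter, annotation, gene lengths and strand use are not given in the sources. TPM is relative, so more of one abundant transcript means less of the rest; the rows given summed to 910830 to 926711 TPM per library.

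All 26518 identifiers were found in GENCODE 29 (hg38), which gave symbols and 1-based coordinates. TPM keeps no depth, so reads were rebuilt as TPM times exon length, scaled per library; of values up to 20 reads, 89.0% to 89.5% came within 0.05 of a whole number. They are estimates and cover no more than counting error.

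Genes averaging 1 TPM or more were fitted on log2(TPM + 1) by limma 3.58.1 (R 4.3.3), two-sided, with a variance trend (2.54 prior degrees of freedom) and Benjamini-Hochberg adjustment at 0.05 over all 14458 genes; "called" means past that threshold. The log2 scale with a pseudocount of 1 understates changes of low genes. Fold changes are ratios of mean TPM. Python 3.11.15 with pandas 2.3.3, numpy 2.4.6 and matplotlib 3.10.9 did the rest.

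The genes, lists and settings were chosen with earlier results of these data known. Each gene of the list is accounted for; from each other pathway list up to 4 called genes with the largest change are named. A 20 Mb window needed 20 tested genes. Promoter windows are RefSeq's on GRCh38.p14; RELB, NFKBIE, IKBKB, IL18 and CSF1 were not used there. Results for some genes are not reported here.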

Additional observations from a re-analysis of the deposited data

How the results depend on the processing

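With 2 libraries a group, the spread within each group rests on 1 difference, and low genes such as TNF, LTB and IL23A rest on few reads. Over single libraries left out, the number of NF-kB genes called higher ran from 0 to 23 and lower from 0 to 3; other pathway genes ran from 0 to 30 higher and 0 to 6 lower, and the whole table from 0 to 4543 higher and 0 to 3185 lower, the 0 being without shControl replicate 1 or 2. Leaving out a library, the log2 change of NFKBIZ ran from -0.37 to 0.01, TNFAIP8 from -0.01 to 0.45, IL23A from -0.33 to 0.98 and CD83 from -0.01 to 0.12. An adjusted p of 0.01 left 5 of the 15 genes and an absolute log2 change of at least 1 left 7. The shares of all tested genes at these thresholds were not worked out, so the counts cannot be set against the whole table. Among NF-kB genes 1 was called lower after quantile normalization, 1 when centred on the median level of 20 Mb windows and 1 by voom on rebuilt reads. Other pathway genes called higher numbered 10 with no filter and 11 without a variance trend, against 19. The whole table's split of 2712 higher and 1918 lower (58.6% higher) was 2280 and 2434 (48.4%) after quantile normalization, 2538 and 2814 (47.4%) by voom, and 1755 and 1809 (49.2%) centred on windows. Reversed signs were NFKB1 (-0.03) and TRAF6 (0.16) centred on windows, and CD83 at -0.01 after quantile normalization, -0.30 centred on windows, -0.02 by voom and -0.25 with the window's median deviation removed. The last setting was chosen after seeing the data. With a replicate block 15 NF-kB genes were called higher, 13 of them shared with the fit without it, and 2372 genes higher and 1557 lower in the whole table. The replicate differences of the groups correlated at -0.0322 across genes. With 1 such difference per group, this value cannot tell whether libraries of the same number were made as pairs. The cause of these shifts was not tested.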
